A study of Bos taurus with 14 samples.

Results

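Long and short conceptuses that had grown from embryos of the same morphological grade were compared on Day 15 of gestation, the time at which the trophoblast of cattle lengthens. The comparison holds 10 of the 14 conceptuses profiled: all those from Grade 1 embryos whose length characteristic reads long (5 conceptuses) or short (5 conceptuses). All were Holstein, sired by 1 bull, recovered from superovulated donor cows on Day 6.5, placed in groups of 2 to 6 into recipient heifers and flushed out again on Day 15. The long group held 4 females and 1 male, and the short group 3 females and 2 males. Neither the measured lengths nor the recipient and dam of each conceptus stand in the labels, so the p-values rest only on how far these 10 animals varied, and shared parents or heifers are not accounted for. For short 1 the labels disagree: its source name says long and its length characteristic says short, and the characteristic was used. The 3 conceptuses from Grade 3 embryos and 1 Grade 1 conceptus with no length label were outside the comparison.

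A ruminant conceptus does not implant at once. It grows from a sphere to a tube and then a filament while free in the uterus, mainly by growth and reshaping of the trophectoderm, the outer epithelium, over an inner layer of hypoblast (the extraembryonic endoderm), with the embryonic disc as a small patch. The trophoblast secretes interferon tau, the signal by which the mother recognises pregnancy, and draws on lipids, amino acids and glucose of the uterine fluid.

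Each conceptus was measured whole on 1 Affymetrix bovine array. The deposited values are log2 expression values made with RMA (robust multi-array averaging), and every value and difference below is on that scale, where 1 unit is a 2-fold change. Of 24016 probe sets tested, those with 1 gene symbol covered 9155 genes, and the brightest probe set on average stood for its gene. The correlation between any 2 of the 10 arrays across probe sets lay between 0.984 and 0.997, and array medians lay between 5.62 and 5.72. The 95% interval of a difference reached 0.19 to each side at the median gene. Trophoblast markers were bright in all 10 conceptuses: IFNT2, an interferon tau gene, read 14.37 to 14.61, the Kunitz protein gene TKDP1 13.91 to 14.57, and the keratin gene KRT18 14.40 to 14.52, while the probe set of KRT8 read 5.33 to 6.36. Defining markers of blood and vessels were dim, with PTPRC at 2.74 to 3.30, HBA at 3.19 to 3.42 and CDH5 at 3.90 to 4.33. A whole conceptus mixes cell types, so fewer cells of a type and less RNA per cell cannot be told apart in any result below.

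A gene was called where its adjusted p in limma's moderated test, after Benjamini-Hochberg adjustment over all probe sets, was under 0.05. Length was accompanied by many small shifts and a few large ones. Of 9155 genes 870 were called (9.5%), 299 higher (3.27%) and 571 lower (6.24%) in long conceptuses. A second quantile normalisation of the 10 arrays gave 350 higher and 438 lower, and centring the array medians gave 273 higher and 577 lower. The size of the excess of lower genes thus varied with the scaling, in either direction. The median difference over all genes was -0.03. Called genes that were higher had a median of 0.55 and those that were lower a median of -0.38, and 62 of the former against 19 of the latter differed by 2-fold or more. Among genes whose mean level was above that of the median gene 4.24% were called higher and 9.52% lower, and among the dimmer ones 2.29% and 2.95%. Over all probe sets, with or without a symbol, 1577 were called (6.57%), 648 higher (2.7%) and 929 lower (3.87%). In 1155 genes the long and short values were fully apart (12.6%), with long above short in 328 (3.58%) and below in 827 (9.03%). All 870 called genes kept their direction among the females alone. Titles share a prefix of unstated meaning, and 2 prefixes hold both lengths. Inside both of them 868 of the 870 kept their direction. The females and these prefixes are parts of the same 10 arrays that set the calls, so such agreement was largely built in.

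**Figure D1:**
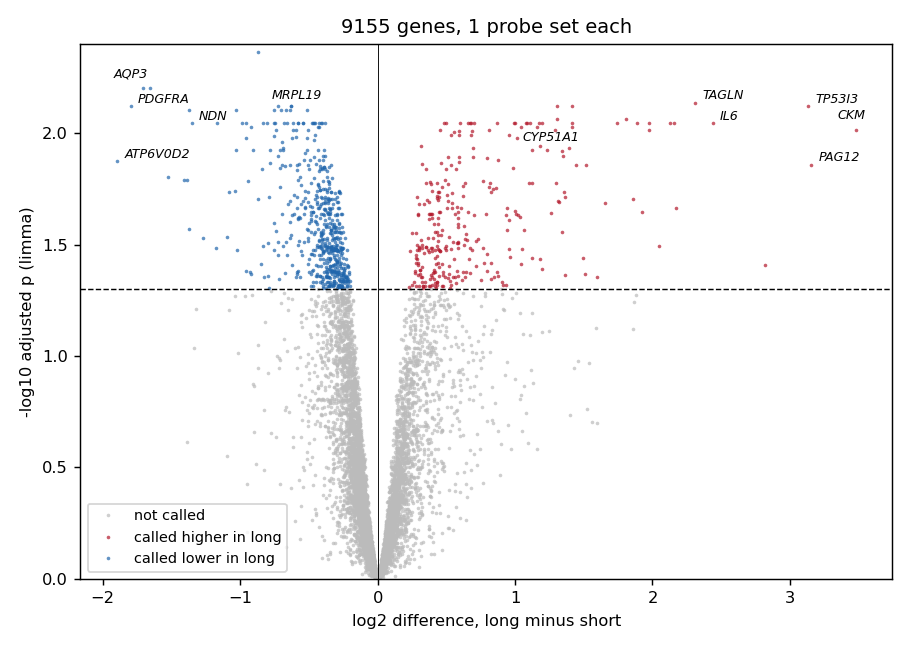
Log2 difference, long minus short, against the -log10 adjusted p from limma for 9155 genes, 1 probe set each; red points were called higher and blue points lower in long conceptuses, and the dashed line marks the threshold of 0.05. The 299 genes called higher reach farther from 0 than the 571 called lower, which crowd within 1 log2 unit.

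The largest rises fell on genes of quite different kinds. CKM, the muscle-type creatine kinase that stores high-energy phosphate, read 10.42, 10.98, 10.40, 9.95 and 10.87 in long 1 to long 5 and 9.34, 7.51, 6.32, 6.23 and 5.83 in short 1 to short 5. Every long conceptus lay above every short one, and the short group itself spread over more than 3 units, with short 1, the conceptus of conflicting labels, closest to the long ones. The difference was 3.48 ± 0.56 (SE), or 11.1-fold (limma adjusted p = 0.00969). The gene's other probe set, dim at a mean of 4.24, differed by 0.13 and was not called. PAG12, one of the pregnancy-associated glycoproteins that trophoblast secretes, read 10.84, 11.01, 9.69, 9.02 and 10.33 in long and 8.72, 6.96, 7.07, 7.20 and 5.18 in short conceptuses. Its groups did not overlap either, although long 4 and short 1 were close, and the difference was 3.15 ± 0.56 (SE, limma adjusted p = 0.0139). The gene belongs to a large family of similar sequences, which an array probe may not keep apart. TP53I3, an oxidoreductase induced by p53, read 9.85, 9.80, 10.02, 9.55 and 8.54 against 7.33, 6.64, 6.63, 6.42 and 5.07, a difference of 3.13 ± 0.38 (SE, limma adjusted p = 0.00759).

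Cytokine, growth factor and cytoskeletal genes followed. IL6, the inflammatory and growth-regulating cytokine, read 8.10, 8.84, 7.54, 7.44 and 8.66 in long and 6.29, 5.95, 5.47, 6.07 and 4.62 in short conceptuses, with a gap of more than 1 unit between the groups. TAGLN (transgelin), an actin-bundling protein of smooth muscle, read 7.69, 8.31, 8.33, 7.74 and 8.88 against 5.42, 5.97, 6.28, 6.33 and 5.41. BMP2, a ligand of the TGF-beta superfamily made by extraembryonic endoderm, read 9.27, 9.60, 8.40, 8.53 and 8.81 against 7.35, 7.29, 7.16, 6.36 and 5.80. All 3 separated the groups fully. IL6 rose by 2.44 ± 0.34, TAGLN by 2.31 ± 0.25 and BMP2 by 2.13 ± 0.32 (SE; limma adjusted p = 0.00902, 0.00729 and 0.00902). Inside the title prefix with 2 long and 1 short conceptus the same differences were 2.53, 2.03 and 2.14, and 1.77, 2.03 and 1.64 where 1 long stood against 2 short.

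**Figure D2:**
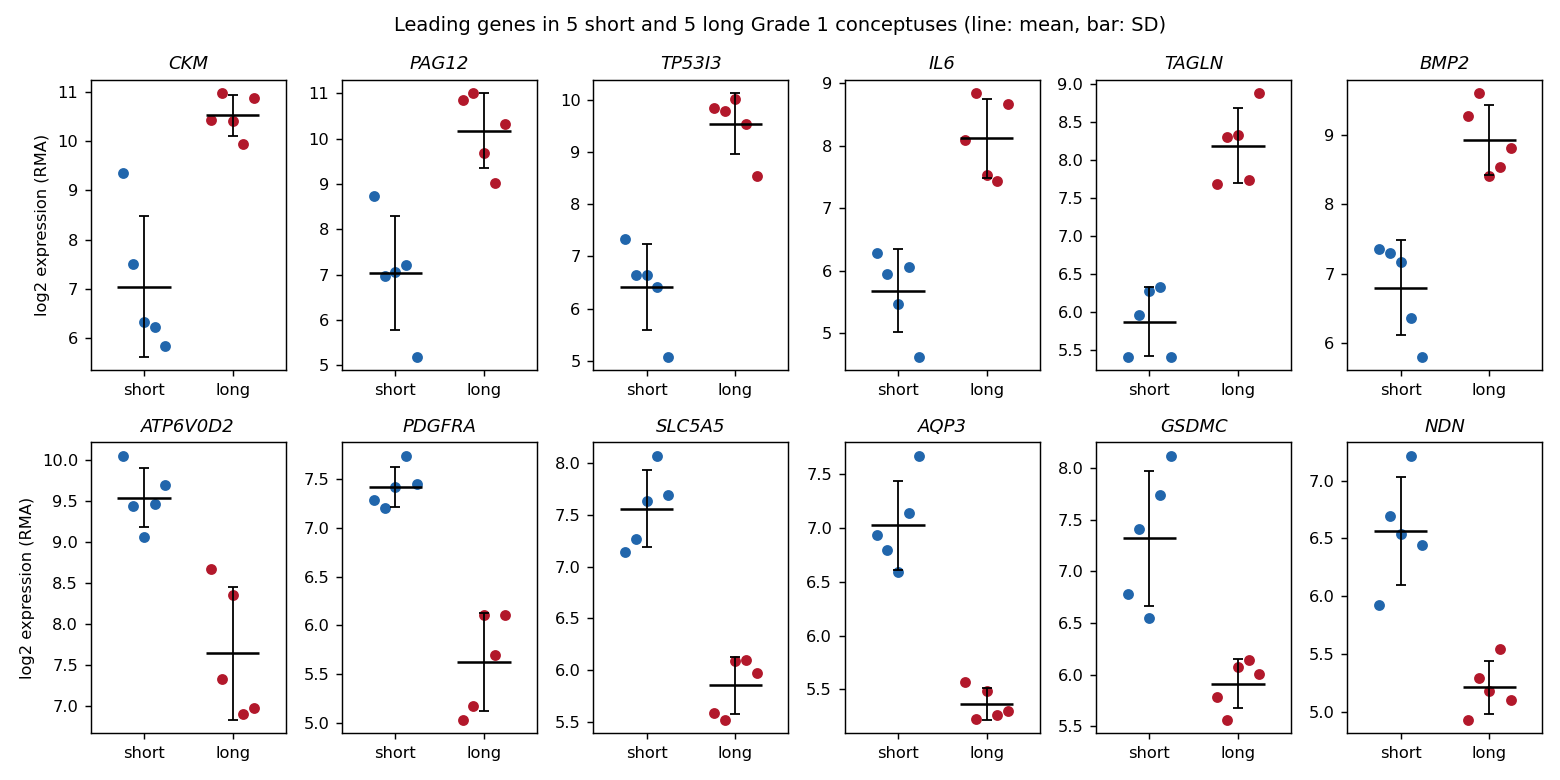
Log2 expression of 12 leading genes in each of the 5 short (blue) and 5 long (red) conceptuses, in replicate order 1 to 5 from left to right within a group; the horizontal line is the group mean and the bar the SD. In all 12 the groups do not overlap, and of these 12 CKM and PAG12 spread most among the short conceptuses.

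Among the other leading risers, PLA2G7, which inactivates platelet-activating factor, covered the widest range: 12.97, 13.06, 11.61, 11.29 and 11.87 in long and 10.21, 11.06, 9.26, 9.61 and 6.54 in short conceptuses. Short 5 stood far below the rest, and long 4 lay just above short 2. ELOVL5, a fatty acid elongase, was bright and read 13.58, 13.55, 13.12, 11.93 and 12.62 against 11.55, 11.32, 10.84, 10.69 and 10.98, and it rose by 1.89 ± 0.29 (SE, limma adjusted p = 0.00902). PRR15, a proline-rich protein known from elongating ruminant conceptuses, read 11.21, 11.69, 11.09, 10.87 and 10.86 against 9.95, 9.81, 8.77, 8.28 and 9.06, with a clear gap between the groups. CYP19A1, the aromatase that makes oestrogens, read 7.80, 8.33, 6.86, 6.51 and 7.19 against 6.38, 5.97, 5.35, 4.94 and 4.76, so that long 4 lay just above short 1. IGFBP7, a secreted binding protein of insulin-like growth factors, read 7.39, 8.33, 7.70, 7.25 and 8.36 against 5.43, 6.23, 5.87, 6.03 and 6.44 and rose by 1.81 ± 0.24 (SE, limma adjusted p = 0.0086). It alone was called of 16 measured genes in the list of insulin-like growth factors (6.25% higher, against 3.27% of all genes). The remaining leaders were AHSG, which encodes the plasma protein fetuin-A (2.17), PRUNE2 (2.15), the calcium-binding S100A11 (2.05), SRPX (1.97) and SSBP2 (1.92).

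With 1 conceptus left out in turn, PLA2G7 lost its call in 7 of 10 fits (limma adjusted p up to 0.0978, without long 2), S100A11 in 5 (up to 0.078, without short 4), AHSG in 3 (up to 0.0513, without short 4), SSBP2 in 3 (up to 0.0607, without long 2) and CYP19A1 in 1 (0.0546, without short 4). The other leading risers kept theirs in all 10. With the title prefix as a block, calls ended for IL6, PRUNE2, SRPX, IGFBP7, AHSG, S100A11 and SSBP2 (limma adjusted p = 0.058, 0.0697, 0.06, 0.0697, 0.189, 0.0761 and 0.132). With the conflicting conceptus counted as long, they ended for TAGLN, IGFBP7, PLA2G7, AHSG, S100A11 and SSBP2 (limma adjusted p = 0.0988, 0.15, 0.0798, 0.162, 0.0938 and 0.0969). Of the 4 probe sets of CYP19A1 1 had the opposite sign. Of the 8 probe sets of AHSG 4 were called and 2 had the opposite sign (-0.28 and -0.13). The called ones share a cluster number in their names with the probe set of GATM, a gene described below, and those of opposite sign carry another. Which gene each of them measures was not tested.

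The genes that fell most included membrane transporters and receptors. AQP3, a channel for water and glycerol, read 5.56, 5.23, 5.49, 5.26 and 5.30 in long and 6.93, 6.80, 6.59, 7.14 and 7.67 in short conceptuses. All long conceptuses lay within 0.4 of each other and more than 1 unit below the lowest short one, and the gene fell by 1.66 ± 0.17 (SE, limma adjusted p = 0.00627). It was the only one called of 6 measured aquaporins (16.7% lower, against 6.24% of all genes), too few for a statement about the family. SLC5A5, the sodium-iodide symporter, read 5.58, 5.52, 6.09, 6.09 and 5.97 against 7.14, 7.26, 7.64, 8.07 and 7.69 and fell by 1.71 ± 0.18 (SE, limma adjusted p = 0.00627). PDGFRA, the receptor for platelet-derived growth factor and a hypoblast marker, read 5.03, 5.18, 6.11, 5.70 and 6.11 against 7.29, 7.20, 7.42, 7.74 and 7.45. The short conceptuses agreed closely with each other in this gene, and it fell by 1.80 ± 0.21 (SE, limma adjusted p = 0.00759), although 1 of its 3 probe sets had the opposite sign. ATP6V0D2, a subunit of the vacuolar proton pump, fell by the most, 1.89 ± 0.33 (SE, limma adjusted p = 0.0134). It read 8.67, 7.33, 8.35, 6.91 and 6.98 against 10.05, 9.44, 9.06, 9.47 and 9.69, with long 1 and long 3 nearest the short group.

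Further down the list of falls, the groups stayed apart but the gaps narrowed. NDN (necdin), an imprinted growth suppressor, read 4.93, 5.29, 5.18, 5.54 and 5.10 in long and 5.93, 6.69, 6.54, 7.22 and 6.44 in short conceptuses, a difference of -1.35 ± 0.20 (SE, limma adjusted p = 0.00902). GSDMC (gasdermin C), of a family of pore-forming proteins, fell by 1.41, NRP1, a co-receptor for VEGF and semaphorins, by 1.39, XPNPEP2, a membrane aminopeptidase, by 1.37, and FOLR3, a folate receptor, by 1.37. NRP1 was close to the dim end of the scale in long conceptuses, at 2.99 to 3.52, where RMA compresses differences. CERS4, a ceramide synthase, and CTNNAL1, a catenin-like protein, both fell by 1.17. C3, the central complement protein, fell by 1.08, the class I histocompatibility gene BOLA by 1.03 and the serine protease PRSS35 by 1.03. In contrast B2M, whose product is the common light chain of class I molecules, rose by 0.62 ± 0.12 (SE, limma adjusted p = 0.0192), from 11.36 to 11.84 in short to 12.06 to 12.64 in long conceptuses. Class I genes form a family of near copies that probes may not separate, and 1 of the 3 probe sets of B2M had the opposite sign. With 1 conceptus left out in turn CERS4 lost its call in 6 fits (limma adjusted p up to 0.0813, without long 2), FOLR3 in 4 (0.0692, without long 2), C3 in 1 (0.0511, without short 4) and B2M in 1 (0.0517, without short 4). Of the 14 leading falls only PDGFRA, SLC5A5, AQP3 and NDN stayed called with the title prefix as a block, where ATP6V0D2 had a limma adjusted p of 0.148, and SLC5A5, AQP3, GSDMC, NDN, CERS4 and CTNNAL1 with the conflicting conceptus counted as long, where PDGFRA was at 0.0501 and ATP6V0D2 at 0.169.

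Genes for making ribosomes were the list with the largest share of lower calls. Of 66 measured genes of ribosome biogenesis and the RNA polymerases, 35 were called lower and 0 higher in long conceptuses (against 6.24% lower over all genes), 65 had a negative difference, and the median difference was -0.31 against -0.03. The shifts were small in size and tight among conceptuses. UTP4, a scaffold protein of the small-subunit processome, read 8.67, 8.66, 8.93, 8.84 and 8.62 in long and 9.31, 9.38, 9.28, 9.36 and 9.60 in short conceptuses and fell by 0.64 ± 0.08 (SE, limma adjusted p = 0.00788). RRP15, which matures the large subunit, read 8.20, 8.01, 8.10, 8.09 and 8.03 against 8.52, 8.48, 8.41, 8.43 and 8.59, so that the groups were apart by more than the range within either. EBNA1BP2, of the large-subunit path, read 10.34, 10.43, 10.49, 10.39 and 10.49 against 10.76, 10.70, 10.85, 10.79 and 10.97, and RRP7, of the small-subunit path, 9.47, 9.33, 9.68, 9.64 and 9.48 against 10.02, 9.87, 9.85, 10.27 and 10.24. The 4 fell by 0.64, 0.40, 0.39 and 0.53, and each kept its call with any 1 conceptus left out.

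The 35 called genes cover each stage of the path. They include subunits of RNA polymerase I, which transcribes ribosomal RNA (POLR1C at -0.41, POLR1E at -0.27, POLR1F at -0.28 and POLR1G at -0.56), and of RNA polymerase III (POLR3A at -0.33, and POLR3F). The core proteins of the particles that modify ribosomal RNA were among them (FBL at -0.27, NOP56 at -0.37 and GAR1 at -0.63), as were further processome genes (NOP14, UTP3, UTP11, UTP15, UTP25, WDR43, WDR75, IMP4, RRP9 and RRP36). Others act on the large subunit (PES1 at -0.41, with BRIX1, NOP2, NOP16, MRTO4 and GNL3) or late on the small one (NOB1 at -0.32, with TSR1 and RRP12). The rest were NOLC1, NOP9 and POLR2F. The groups did not overlap in 34 of the 66, against 9.03% of all genes with long below short. As a mean over the 66 genes, each taken as its deviation from the mean of the 10 conceptuses, long conceptuses lay at -0.21, -0.22, -0.10, -0.08 and -0.15 and short ones at 0.07, 0.09, 0.12, 0.18 and 0.31. Short 5 was thus the highest, and long 1 and long 2 the lowest.

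This count moves with the conceptuses used, as the count over all genes does. It was 32 without short 1, 23 without long 3, 22 without short 2, 22 without short 3, 19 without long 4, 11 without short 5, 9 without long 2, 7 without long 1, 6 without long 5 and 4 without short 4, and the count of all genes called lower was 148 in the last of these fits. It was 11 with the conceptus of conflicting labels counted as long, 19 after a second quantile normalisation and 2 with the title prefix as a block, where 28 genes in all were lower. The median stayed between -0.34 and -0.26 with any 1 conceptus left out.

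**Figure D3:**
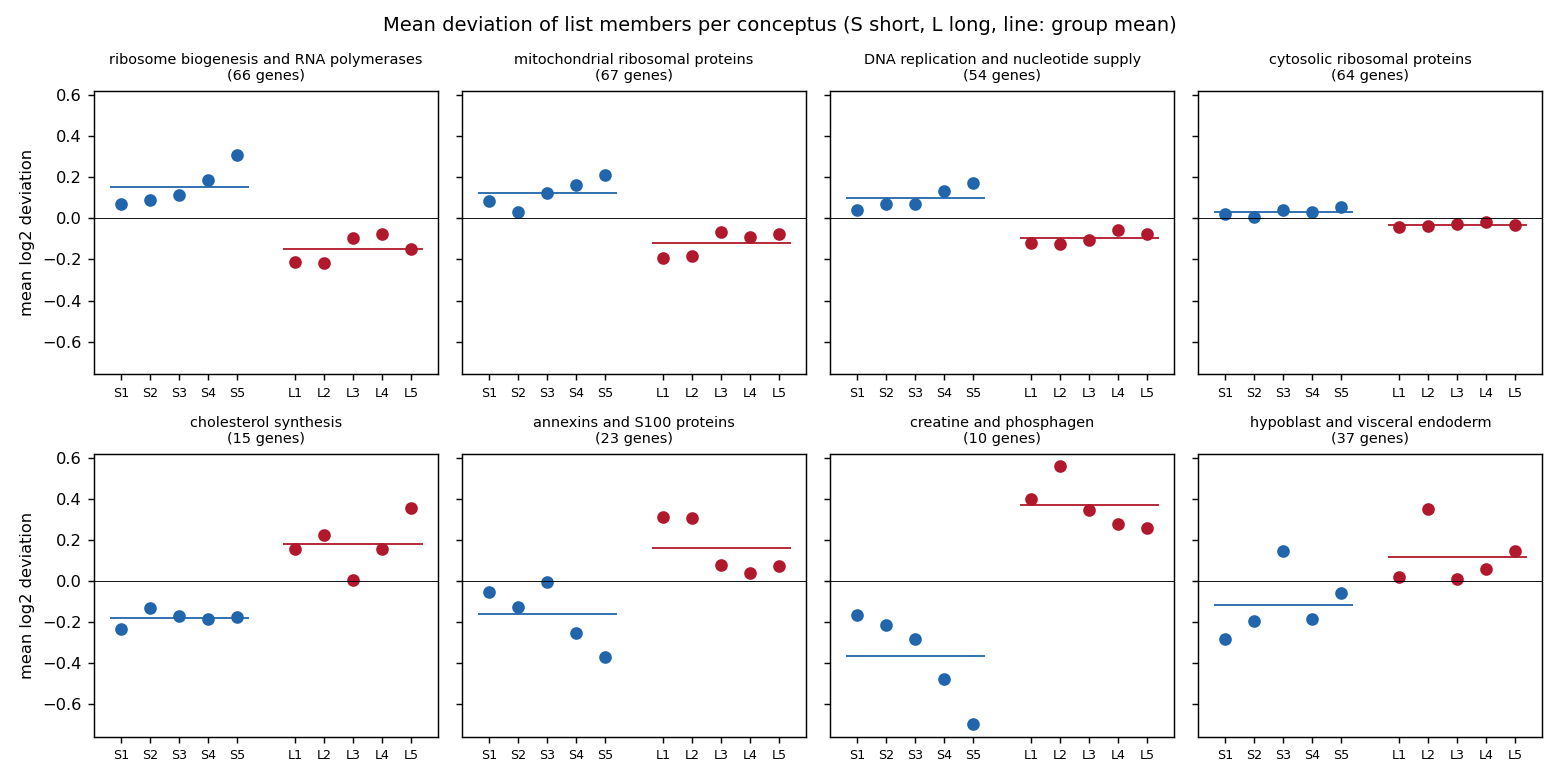
Mean log2 deviation of the members of 8 gene lists in each short (S1 to S5, blue) and long (L1 to L5, red) conceptus, each gene taken relative to its mean over the 10 conceptuses; lines are group means. The groups are apart in the first 7 lists, by least in cytosolic ribosomal proteins, and overlap in hypoblast genes, where S3 lies among the long conceptuses.

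The ribosome of the mitochondrion followed the same direction. Of 67 measured genes for its proteins 21 were called lower and 0 higher in long conceptuses (31.3% lower, against 6.24% of all genes). A negative difference was found in 66, the median was -0.22, and the groups did not overlap in 36 (9.03% of all genes had long below short without overlap). MRPL19, of its large subunit, read 10.10, 10.05, 10.14, 10.15 and 10.11 in long and 10.47, 10.52, 10.73, 10.74 and 10.64 in short conceptuses. The 5 long conceptuses lay within 0.1 of each other, and the gene fell by 0.51 ± 0.07 (SE, limma adjusted p = 0.00788). MRPL32 fell by 0.66, MRPL46 by 0.62 and MRPL44 by 0.38, and all 4 kept their calls with any 1 conceptus left out. The count was 13 without short 3, 11 without long 4, 10 without long 1, long 5 or short 5, 8 without long 2 and 7 without short 4. It was 4 with the conceptus of conflicting labels counted as long and 2 with the title prefix as a block.

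Proteins of the cytosolic ribosome itself differed from that picture. Of 64 measured genes 1 was called, and it was lower: RPS27L, a p53-regulated relative of RPS27, read 10.29, 10.26, 10.35, 10.81 and 10.49 in long and 10.91, 10.81, 10.90, 10.89 and 11.09 in short conceptuses. Long 4 met the lowest short value, and the call was lost in 5 of 10 fits (limma adjusted p up to 0.0626, without long 2). The list's median was -0.05, with 60 of 64 differences negative. Long lay below short without overlap in 13 of the 64 genes, against 9.03% of all genes. The median level of the list was 13.82, near the top of the scale, and whether that hides differences was not tested. Over 67 tRNA synthetases and translation factors the median was -0.14, with 62 negative. Of these 67 genes 9 were called lower and 0 higher (13.4% lower, against 6.24% of all genes and 9.52% of genes above the median level). Among them were EIF2B1 (-0.40), EIF2B2 (-0.36) and EIF2B4 (-0.31), subunits of the exchange factor that recharges initiation factor eIF2, EIF3J (-0.28), and WARS2, the mitochondrial tryptophan tRNA synthetase (-0.27). The 9 became 5 without long 3, 3 without long 4, 2 without long 1, long 2, short 4 or short 5, and 1 without long 5. EIF2B1 lost its call in 7 of those fits (limma adjusted p up to 0.0758, without short 4), WARS2 in 4 (0.058, without long 1), EIF2B2 in 2 (0.0524, without long 5) and EIF3J in 1 (0.0506, without long 5).

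The respiratory chain moved less than the mitochondrial ribosome. Of 91 measured genes, assembly factors included, 5 were called lower (5.5%, against 6.24% of all genes) and 1 higher (1.1%, against 3.27%). The median was -0.09, with 77 differences negative. The lower ones were the complex I subunits NDUFS3 (-0.32) and NDUFB7 (-0.27), the complex I assembly factors NDUFAF5 (-0.51) and NDUFAF8 (-0.30), and the ATP synthase gene ATP5MC1 (-0.28). COX6B2, a testis-type subunit of cytochrome oxidase, was the one that rose, by 0.30. None of the 5 that the rule for named genes covers kept its call with every conceptus left out: NDUFB7 and NDUFS3 lost it in 7 fits, NDUFAF5 and NDUFAF8 in 4, and COX6B2 in 8 (limma adjusted p up to 0.0787, 0.0812, 0.0701, 0.0578 and 0.0815, each without long 2). The count of lower genes was 0 without long 1, long 2 or short 5, 1 without short 4 or long 5, 2 without short 3 or long 4, and 5 in the other 3 fits. It rose to 10 with sex as a covariate and to 15 with a mean-variance trend and robust variances.

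Genes that copy DNA formed the third group with many lower calls. Of 54 measured genes of DNA replication and nucleotide supply 14 were called lower and 0 higher (25.9% lower, against 6.24% of all genes), with a median of -0.17 and 48 negative. Origin recognition and licensing, the step that loads the replicative helicase, supplied the largest share: ORC1 (-0.47), ORC3 (-0.30), ORC4 (-0.29), ORC5 (-0.37), CDC6 (-0.31), CDT1 (-0.33) and MCM5 (-0.39). ORC1 read 8.76, 8.77, 8.90, 8.82 and 8.90 in long and 9.20, 9.25, 9.22, 9.49 and 9.36 in short conceptuses, so that a gap of 0.3 parted groups whose own ranges were 0.1 and 0.3. The gene fell by 0.47 ± 0.07 (SE, limma adjusted p = 0.00902). POLD1, the catalytic subunit of DNA polymerase delta (-0.44), the S-phase cyclin CCNE2 (-0.43), the G1 kinase CDK4 (-0.49) and thymidylate synthase TYMS (-0.22) were lower too, as were POLD3, RFC3 and CHAF1B. The 14 became 9 without long 3, 6 without long 2 or long 5, 5 without long 1 or short 5, and 3 without short 4. They became 4 with the conceptus of conflicting labels counted as long and 0 with the title prefix as a block. ORC1, MCM5 and CCNE2 kept their calls in the 10 fits with 1 conceptus left out, but not with the title prefix as a block (limma adjusted p = 0.0823, 0.173 and 0.0632), and MCM5 was at 0.164 with the conflicting conceptus counted as long. POLD1 reached a limma adjusted p of 0.05 without short 4.

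Of 41 genes of mitosis and the spindle 2 were lower and 0 higher (4.88% lower, against 6.24% of all genes; median -0.09): cyclin A2, CCNA2 (-0.29), and the microtubule depolymerase KIF2C (-0.24). Each lost its call in 9 of 10 fits (limma adjusted p up to 0.111 without long 5 and 0.106 without long 2). Of 41 genes of chromatin and DNA methylation 4 were lower and 0 higher (9.76% lower, against 6.24% of all genes and 9.52% of genes above the median level). DNMT1, the maintenance DNA methyltransferase, read 7.57, 7.46, 7.66, 7.84 and 7.62 in long and 8.03, 8.03, 8.13, 8.32 and 8.22 in short conceptuses and fell by 0.52 ± 0.08 (SE, limma adjusted p = 0.0105), with a call in every fit that left out 1 conceptus. The de novo methyltransferase DNMT3B fell by 0.39, the chromatin protein HMGA1 by 0.38 and the histone methyltransferase EZH2 by 0.26. DNMT3B lost its call in 7 fits (limma adjusted p up to 0.0795, without long 5), EZH2 in 7 (0.0763, without long 1) and HMGA1 in 5 (0.0611, without long 2), and 1 of the 2 probe sets of DNMT3B had the opposite sign.

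Lower calls made up 9.09% of splicing factors, 9.30% of nuclear transport genes and 7.69% of proteasome genes. These lists had median levels of 11.01, 9.44 and 11.57. Among genes above the median level 9.52% were called lower, against 6.24% of all genes, so none of these shares exceeded that of bright genes. Of 66 splicing factors 6 were lower and 0 higher (median -0.14, 58 negative): PRPF31 (-0.34), LSM7 (-0.34), PRPF3 (-0.41), SNRPB (-0.33), HNRNPC and SNRPA1. The 6 became 3 without short 2, 2 without long 1, long 2, long 5 or short 5, and 0 without short 4. Of 43 nucleoporins and nuclear transport genes 4 were lower, the pore proteins NUP214 (-0.42) and NUP85 (-0.45), RANBP1 (-0.26), which helps the GTPase Ran, and the importin IPO4 (-0.35), while the importin IPO8 rose by 0.33. Of 39 proteasome genes 3 were lower, the immunoproteasome subunit PSMB10 (-0.51), PSMG2 (-0.31) and PSMD9 (-0.27). Of 37 genes of the unfolded protein and heat shock responses only HSPA4 (-0.36) and HSPB8 (0.54), chaperones that moved oppositely, were called. These were 2.7% lower and 2.7% higher, against 6.24% and 3.27% of all genes. Long lay below short without overlap in 8 of the 37, against 9.03% of all genes. HSPA4 kept its call with every conceptus left out. NUP85, IPO4, IPO8 and HSPB8 lost theirs in 9 fits (limma adjusted p up to 0.111, 0.11, 0.11 and 0.101, without long 2, long 1, long 5 and long 2), PSMD9 in 8 (0.102, without long 2) and SNRPB in 7 (0.0909, without short 4). PSMB10 lost it in 6 (0.0745, without long 2), PRPF3, RANBP1 and PSMG2 in 5 (0.0773, 0.0669 and 0.0741, without short 4), NUP214 in 2 (0.0573, without short 4), and PRPF31 and LSM7 in 1 (0.0513, without short 4).

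**Figure D4:**
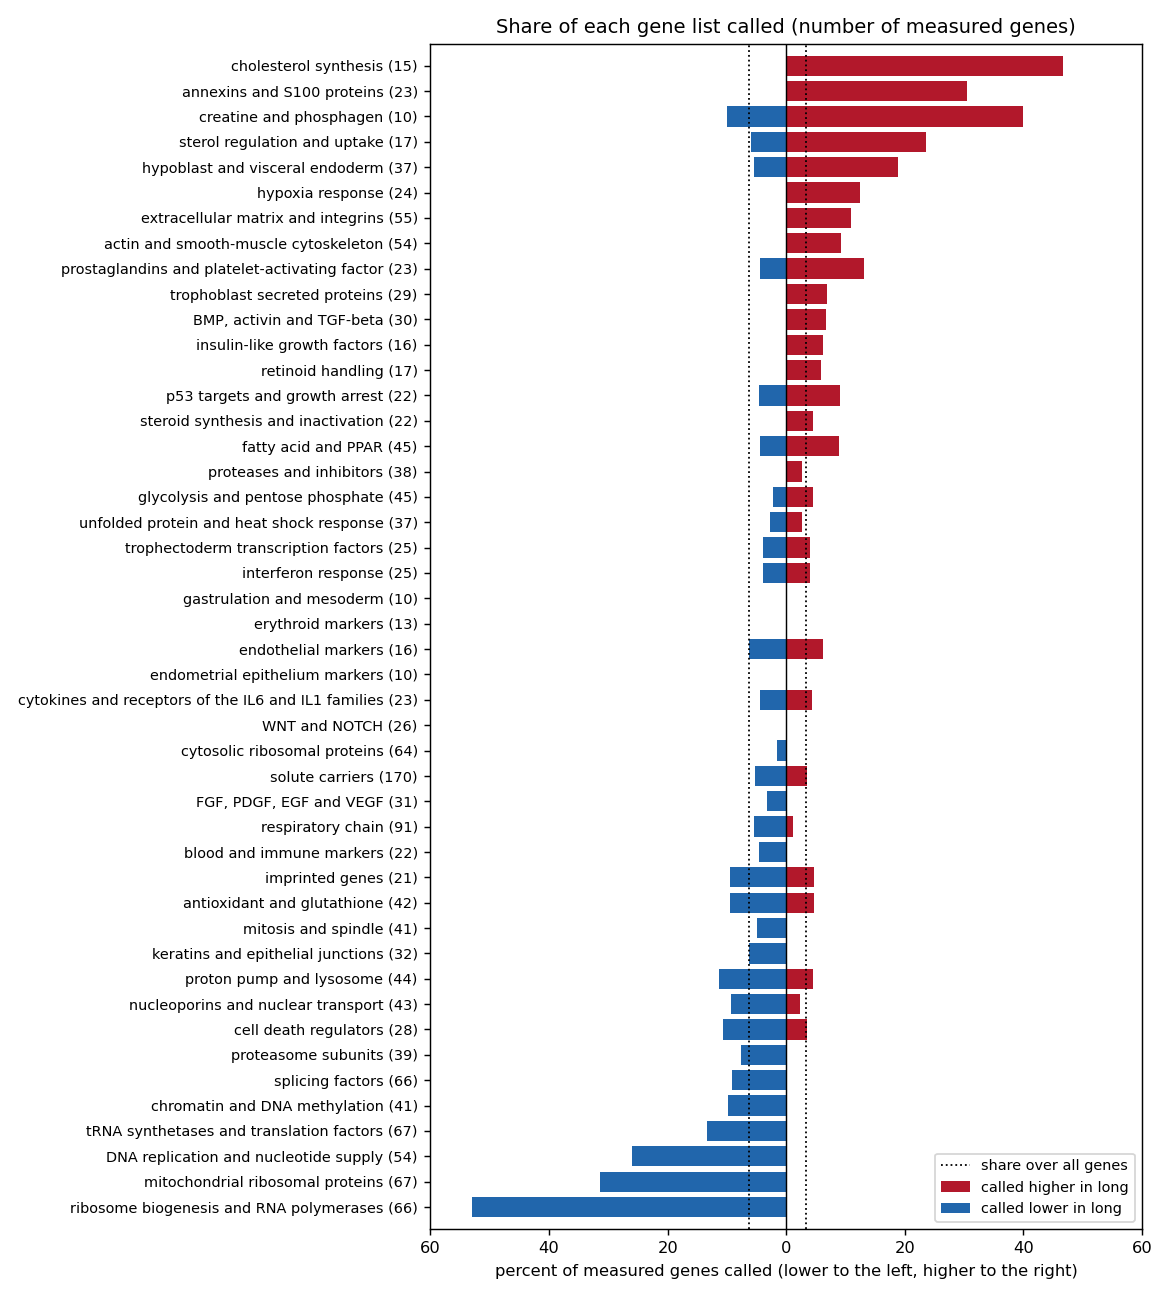
Percent of the measured genes of each list called lower (blue, to the left) and higher (red, to the right) in long conceptuses, for lists with at least 10 measured genes, whose number stands in brackets; dotted lines mark the 6.24% and 3.27% of all genes. Ribosome biogenesis, mitochondrial ribosomal proteins and DNA replication reach farthest to the left, and cholesterol synthesis, creatine metabolism and annexins farthest to the right.

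Sterol synthesis was the list with the largest share of higher calls. Of 15 measured genes of cholesterol synthesis 7 were called higher and 0 lower (46.7%, against 3.27% of all genes higher), and the median difference was 0.26. CYP51A1, which removes the 14-alpha methyl group of lanosterol, read 11.32, 11.48, 10.77, 10.97 and 11.47 in long and 10.08, 10.42, 10.19, 9.81 and 9.99 in short conceptuses. It rose by 1.11 ± 0.15 (SE, limma adjusted p = 0.00902), and long 3 was the lowest of its group. HMGCS1, which forms HMG-CoA at the start of the path, read 12.67, 12.63, 12.28, 12.47 and 12.79 against 11.77, 12.09, 11.91, 11.79 and 11.91. MSMO1 and NSDHL, which act with each other to remove the 4-methyl groups, rose by 0.57 and 0.44, the sterol isomerase EBP by 0.50, and SQLE, which makes squalene epoxide, and LSS, which closes it into lanosterol, by 0.50 and 0.41. The mean deviation of the 15 genes was 0.16, 0.22, 0.00428, 0.16 and 0.35 in long 1 to long 5 and -0.23, -0.13, -0.17, -0.18 and -0.17 in short 1 to short 5. Long 3 thus sat midway, and the short conceptuses lay close together. The 7 became 4 without long 2 or short 4, 1 with the conceptus of conflicting labels counted as long and 0 with the title prefix as a block.

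Genes that regulate and move sterols were called in both directions. Of 17 measured, 4 were higher and 1 lower (23.5% and 5.88%, against 3.27% and 6.24% of all genes), with a median of 0.15. NPC1, which exports cholesterol from the lysosome, read 10.15, 10.13, 10.21, 10.39 and 10.58 in long and 9.70, 9.88, 9.56, 9.55 and 9.37 in short conceptuses, and APOA1, the main protein of high-density lipoprotein, read 13.12, 13.28, 12.96, 13.21 and 13.31 against 12.65, 12.69, 12.78, 12.38 and 12.43. Both separated the groups and kept their calls with any 1 conceptus left out, with rises of 0.68 ± 0.11 and 0.59 ± 0.10 (SE, limma adjusted p = 0.0102 and 0.00982). INSIG1, which holds the sterol sensor in the endoplasmic reticulum, rose by 0.73, and SREBF2, the transcription factor of sterol synthesis, by 0.40. MYLIP, the ligase that degrades the LDL receptor, fell by 0.67. INSIG1 lost its call in 7 fits (limma adjusted p up to 0.074, without short 4) and SREBF2 and MYLIP in 6 (0.0771 and 0.0772, without long 2). The 4 higher genes became 2 without long 2, long 4, long 5 or short 4.

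Fatty acid and prostaglandin lists had higher calls in 8.89% and 13.0% of their genes, against 3.27% of all genes. Beside ELOVL5, the elongase of very long chains ELOVL4 (1.05), the acyl-CoA synthetase ACSL5 (0.86) and GPAM (0.56), which starts glycerolipid synthesis, rose among 45 genes of fatty acids and PPAR. The fatty acid binding protein FABP7 fell by 0.87 and the carrier SLC27A4 by 0.46. ACSL5 was dim but well parted, at 5.61, 5.72, 5.06, 4.89 and 4.91 in long and 4.15, 4.54, 4.45, 4.31 and 4.43 in short conceptuses. Of 23 genes of prostaglandins and platelet-activating factor, PLA2G7, the prostaglandin transporter SLCO2A1 (1.37) and the prostacyclin synthase PTGIS (0.90) rose, and the prostaglandin reductase PTGR2 fell by 0.31. In SLCO2A1 and PTGIS short 5 stood apart at 6.08 and 6.75, where the other short conceptuses read at least 7.41 and 7.90, and both calls were kept without short 5. ACSL5 and ELOVL5 kept their calls with any 1 conceptus left out. ELOVL4, GPAM, SLCO2A1 and PTGIS lost theirs in 8 fits (limma adjusted p up to 0.0869, 0.102, 0.101 and 0.111, without long 2, long 2, long 5 and long 2). PTGR2 lost it in 7 (0.0785, without long 2), SLC27A4 in 6 (0.085, without short 4) and FABP7 in 1 (0.051, without long 5).

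Creatine and phosphagen genes rose in part. Beside CKM, GATM, which makes the creatine precursor guanidinoacetate, read 7.06, 8.01, 7.23, 7.42 and 7.41 in long and 5.11, 5.66, 6.63, 5.38 and 5.64 in short conceptuses. It rose by 1.74 ± 0.26, or 3.35-fold (SE, limma adjusted p = 0.00902), and short 3 stood about 1 unit above the next short conceptus. The probe set of GATM shares a cluster number in its name with the called probe sets of AHSG, so both rises may not be separate results. Which gene these probe sets measure was not tested. The mitochondrial adenylate kinases AK4 and AK3 rose by 1.34 and 0.52, whereas the cytosolic AK1 fell by 0.99 ± 0.15 (SE, limma adjusted p = 0.00902). AK1 read 6.03, 6.06, 6.54, 6.31 and 5.87 against 7.15, 7.01, 6.86, 7.12 and 7.61, with no overlap. Of the 10 measured genes 4 were higher and 1 lower (40% and 10%, against 3.27% and 6.24% of all genes), with a median of 0.48. Of the members that were not called, 3 handle creatine: CKB, the brain-type creatine kinase, at 0.28 ± 0.18, GAMT, which completes creatine synthesis, at 0.61 ± 0.20, and the creatine transporter SLC6A8 at -0.12 ± 0.14 (SE; limma adjusted p = 0.407, 0.0886 and 0.677; chosen after their values were seen). AK4 and AK3 lost their calls in 7 fits (limma adjusted p up to 0.0719 and 0.0966, without long 2), and the 4 higher genes became 2 without long 1, long 2, long 4, long 5, short 3 or short 4.

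Genes of glucose metabolism were called in 4.44% of cases higher and 2.22% lower, and genes of the low-oxygen response only higher. Of 45 genes of glycolysis and the pentose phosphate path, the muscle phosphoglycerate mutase PGAM2 (0.59) and UGP2, which makes UDP-glucose (0.42), rose, and RPIA, which supplies ribose phosphate for nucleotides, fell by 0.69 ± 0.11 (SE, limma adjusted p = 0.011). RPIA read 8.96, 8.65, 9.17, 9.08 and 8.86 in long and 9.42, 9.45, 9.74, 9.75 and 9.85 in short conceptuses, with no overlap. Of 24 genes of the hypoxia response 3 rose (12.5%, against 3.27% of all genes): NDRG1 by 1.52 ± 0.27 (SE, limma adjusted p = 0.0139), MXI1, an antagonist of MYC, by 1.16 ± 0.18 (SE, limma adjusted p = 0.00937), and the hypoxia-inducible factor EPAS1 by 0.56. MXI1 read 7.34, 7.70, 7.33, 7.64 and 7.65 against 6.28, 6.30, 6.96, 6.55 and 5.76. NDRG1 read 8.18, 8.69, 8.55, 8.44 and 8.19 in short conceptuses and 9.92, 9.13, 9.69 and 9.89 in long 1, long 3, long 4 and long 5, with long 2 about 1 unit above these. RPIA, NDRG1 and MXI1 kept their calls with any 1 conceptus left out. UGP2 lost its call in 8 (limma adjusted p up to 0.0952, without long 2), PGAM2 in 4 (0.0596, without short 4) and EPAS1 in 3 (0.0607, without long 5).

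Annexins and S100 proteins, which bind calcium and often pair at membranes, were raised in part. Of 23 measured genes 7 were called higher and 0 lower (30.4% higher, against 3.27% of all genes), with a median of 0.15. ANXA3 read 8.57, 8.76, 8.27, 8.63 and 8.55 in long and 7.71, 7.50, 7.65, 6.39 and 6.77 in short conceptuses and rose by 1.35 ± 0.23 (SE, limma adjusted p = 0.0126). S100A11 read 11.31, 11.65, 9.57, 9.74 and 10.28 against 8.83, 9.40, 8.95, 7.90 and 7.23, so long 3 and short 2 were close. S100A10 rose by 0.66, ANXA4 by 0.59, ANXA5 by 0.52, S100B by 0.41 and ANXA6 by 0.23. The mean deviation of the 23 genes was 0.31 in both long 1 and long 2, at most 0.08 in the other long conceptuses, and -0.37 to -0.00287 in the short ones. The 7 became 4 without short 2, long 3 or long 4, 2 without long 2, and 1 without long 1, long 5, short 4 or short 5. ANXA3 kept its call in all 10 such fits, while S100A10 lost it in 5 (limma adjusted p up to 0.0909, without long 2) and ANXA4 in 4 (0.0613, without long 1).

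Cytoskeletal and matrix genes that were called were all higher in long conceptuses. Of 54 actin and smooth-muscle genes 5 rose (9.26%, against 3.27% of all genes): TAGLN, the tropomyosins TPM2 (1.42) and TPM4 (0.82), the calponin CNN2 (0.53) and moesin, MSN (0.35), which links actin to the membrane. TPM2 read 5.58, 5.98, 5.27, 5.30 and 6.07 in long and 4.42, 4.52, 4.13, 4.20 and 3.85 in short conceptuses, and its rise of 1.42 ± 0.18 (SE, limma adjusted p = 0.00759) held with any 1 conceptus left out. Of 55 genes of matrix and integrins 6 rose (10.9%, against 3.27% of all genes): COL4A1 (0.58), SPARC (0.47) and perlecan, HSPG2 (0.38), of basement membranes, the integrin ITGAV (0.55), which binds osteopontin and fibronectin, THY1 (0.40) and the tetraspanin CD63 (0.28). ADAMTS1, a matrix protease, rose by 0.78 as 1 of 38 proteases and inhibitors. Short 3 read 11.14 in both COL4A1 and ADAMTS1, within the range of the long conceptuses. The 5 actin genes became 2 without short 2, long 1, long 2, long 5 or short 4, and 3 without short 5. The 6 matrix genes became 2 without long 3, 1 without short 2 or long 1, and 0 without long 2, long 4, long 5, short 4 or short 5. CD63 and ADAMTS1 lost their calls in 9 fits (limma adjusted p up to 0.0885 and 0.0959, without long 2), SPARC and ITGAV in 8 (0.0971 without short 4 and 0.106 without long 2), TPM4 in 7 (0.0943, without long 2), and COL4A1 and MSN in 6 (0.0789 and 0.08, without long 2).

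Transporters were called at about the shares of all genes. Of 170 solute carriers 6 were higher and 9 lower (3.53% and 5.29%). Those higher included the glucose transporter SLC2A3 (0.95), the copper transporter SLC31A2 (0.69), and SLC35A3 (0.40) and SLC35A1 (0.29), which bring nucleotide sugars into the Golgi. Those lower included the lactate transporter SLC16A3 (-0.58), the nucleoside transporter SLC29A2 (-0.45) and the mitochondrial carrier SLC25A30 (-0.25). SLC31A2 read 7.72, 8.04, 7.43, 7.28 and 7.56 in long and 6.90, 6.99, 6.96, 6.88 and 6.84 in short conceptuses, with the short ones within 0.2 of each other. SLC16A3 read 8.68, 8.84, 8.62, 8.95 and 8.73 against 9.32, 9.64, 9.25, 9.46 and 9.06, but its other 2 probe sets had the opposite sign. The 9 lower genes became 5 without short 2, 4 without long 1 or long 5, 3 without long 2 or short 5, and 2 without short 4 or long 4. The 6 higher ones became 4 without long 3 or long 4, 2 without long 5 or short 5, and 1 without long 1, long 2 or short 4. SLC31A2 and SLC16A3 kept their calls in all 10 such fits. SLC35A1 lost its call in 8 (limma adjusted p up to 0.0869, without long 5), SLC25A30 in 6 (0.0687, without short 4), SLC2A3 in 5 (0.0618), SLC35A3 in 4 (0.0621) and SLC29A2 in 3 (0.0596), the last 3 without short 4.

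In the list of the proton pump and lysosome, 5 of 44 genes were lower and 2 higher (11.4% and 4.5%, against 6.24% and 3.27% of all genes). Among genes above the median level 9.52% were lower. GUSB, the lysosomal beta-glucuronidase, read 10.56, 11.12, 10.78, 11.27 and 11.12 in long and 10.08, 9.06, 9.99, 9.94 and 9.31 in short conceptuses and rose by 1.29 ± 0.21 (SE, limma adjusted p = 0.00969). The membrane protein LAMP2 rose by 0.30. Beside ATP6V0D2, the protease CTSH fell by 0.78 ± 0.14 (SE, limma adjusted p = 0.0136). CTSH read 9.54, 9.49, 9.56, 9.29 and 9.41 against 9.86, 10.07, 10.20, 10.31 and 10.75, with short 5 the highest. LAPTM4B fell by 0.56, the lysosomal transcription factor TFEB by 0.54 and the protease CTSV by 0.51. Calls of GUSB, CTSH, LAPTM4B and ATP6V0D2 held in all fits with 1 conceptus left out, and those of LAMP2, CTSV and TFEB were lost in 9, 7 and 5 (limma adjusted p up to 0.111 without long 5, 0.0889 without long 5 and 0.06 without long 2).

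Signalling lists had at most 2 called genes each, where 3.27% of all genes were called higher and 6.24% lower. Of 30 genes of BMP, activin and TGF-beta signalling, BMP2 rose, as did SMAD2, which relays activin and TGF-beta signals to the nucleus. SMAD2 read 10.19, 10.23, 9.98, 10.11 and 10.34 in long and 9.65, 9.64, 9.78, 9.53 and 9.31 in short conceptuses, a rise of 0.59 ± 0.10 (SE, limma adjusted p = 0.0102) that held with any 1 conceptus left out. PDGFRA was the one gene called of 31 of FGF, PDGF, EGF and VEGF signalling. In the list of the IL6 and IL1 families, 23 genes, IL6 rose and IL33, an alarm cytokine, fell by 0.70; IL33 lost its call in 3 fits (limma adjusted p up to 0.0598, without short 4), and 1 of its 3 probe sets had the opposite sign. Of 17 genes of retinoid handling, the retinol carrier RBP4 alone was called. In the interferon response list of 25 genes, B2M rose and the transcription factor IRF7 fell by 0.31; IRF7 lost its call in 8 fits (limma adjusted p up to 0.0807, without long 5). None of 26 WNT and NOTCH genes was called in limma, where the smallest p belonged to HEY1 at 0.58 ± 0.16 (SE, limma adjusted p = 0.0504). At an unadjusted p under 0.05 there were 8 of the 26, against 5274 of all 24016 probe sets. With 1 conceptus left out up to 2 of the 26 were called higher.

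Trophoblast genes other than PAG12 and CYP19A1 were called in small numbers. Higher and lower calls made up 6.9% and 0% of secreted trophoblast proteins and 4% and 4% of trophectoderm transcription factors. They made up 0% and 6.25% of keratins and junction genes, against 3.27% and 6.24% of all genes. Of 29 secreted trophoblast proteins 2 were called, PAG12 and the Kunitz protein TKDP2, which rose by 0.95 ± 0.23 (SE, limma adjusted p = 0.0331) at low levels of 4.07 to 5.87. Among the bright members, IFNT2 averaged 14.58 ± 0.02 across the long group and 14.48 ± 0.08 across the short one (SD, n = 5 each), near the top of the scale. Whether that level hides differences was not tested. TKDP4 read 13.49, 13.41, 13.10, 12.84 and 12.88 in long and 12.93, 12.46, 12.08, 11.83 and 10.44 in short conceptuses, a difference of 1.20 ± 0.37 that was not called (SE, limma adjusted p = 0.0782). Its groups overlapped only through long 4, long 5 and short 1. PAG2 read 13.92 to 14.18 in long and 13.61 to 13.76 in 4 short conceptuses, with short 5 at 12.48, and was not called (0.61 ± 0.21, SE, limma adjusted p = 0.114). Of 25 trophectoderm transcription factors, which do not include the unmeasured CDX2 and GATA3, TFAP2A rose by 0.38 and ASCL2, an imprinted factor of the early trophoblast, fell by 0.49. At an unadjusted p under 0.05 there were 14 of the 25, against 5274 of all 24016 probe sets. Among those not called HAND1, a factor of trophoblast differentiation, stood at 1.59 ± 0.49 and TEAD4, an early trophectoderm factor, at -0.21 ± 0.06 (SE; limma adjusted p = 0.0745 and 0.0539; chosen after their values were seen). With sex as a covariate 6 of the 25 were higher and 3 lower. Of 32 keratins and junction genes KRT10 fell by 0.66 and the tight junction gene CLDN7 by 0.31. CLDN7 lost its call in 9 fits (limma adjusted p up to 0.1), TFAP2A and ASCL2 in 8 (0.0982 and 0.102), TKDP2 and KRT10 in 7 (0.0822 and 0.0875), each highest without long 2.

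The hypoblast list was raised in some of its genes and in some conceptuses. Of 37 measured genes 7 were higher and 2 lower (18.9% and 5.41%, against 3.27% and 6.24% of all genes), with a median of 0.07. Those higher were BMP2, AHSG, RBP4, APOA1, COL4A1, SPARC and albumin, ALB (0.28), and those lower PDGFRA and CTSV. The called probe sets of AHSG share a cluster number with that of GATM, and which gene they measure was not tested. RBP4 read 7.71, 8.58, 7.58, 7.82 and 8.01 in long and 6.10, 6.62, 7.33, 6.22 and 6.93 in short conceptuses and rose by 1.30 ± 0.24 (SE, limma adjusted p = 0.0167). Short 3 was the highest short conceptus in AHSG, RBP4, APOA1, COL4A1 and SPARC, and its mean deviation over the 37 genes was 0.15, within the 0.00883 to 0.35 of the long conceptuses, against -0.28 to -0.06 in the other short ones. Of the defining transcription factors of the hypoblast, SOX17 and FOXA2 were not among the measured genes. GATA6, at -0.18 ± 0.09, and GATA4, at -0.11 ± 0.10, were not called (SE, limma adjusted p = 0.262 and 0.615). The 7 became 4 without short 2, long 1, long 2 or long 5, and 3 without short 4 or short 5, and the median turned to -0.00953 without short 1.

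Epiblast and mesoderm genes were measured in few members. Of 5 epiblast genes DNMT3B was called, lower. POU5F1, the pluripotency factor of the embryonic disc, read 7.00, 7.25, 7.99, 7.09 and 7.26 in long and 7.57, 7.69, 8.75, 8.55 and 8.14 in short conceptuses and was not called (-0.82 ± 0.25, SE, limma adjusted p = 0.0704). Only long 3 lay among the short conceptuses. SOX2 stood at -0.26 ± 0.09 (SE, limma adjusted p = 0.106), and NANOG was not among the measured genes. None of 10 gastrulation and mesoderm genes was called in limma, and 1 passed at most with 1 conceptus left out. At an unadjusted p under 0.05 there were 2 of the 10, against 5274 of all 24016 probe sets. The smallest p there was that of SNAI1, a repressor of epithelial genes, which read 8.62, 8.28, 8.61, 8.25 and 8.30 against 9.33, 10.03, 8.95, 8.94 and 8.70 (-0.78 ± 0.21, SE, limma adjusted p = 0.051).

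Genes of p53, cell death and redox defence moved in both directions. Higher and lower calls made up 9.09% and 4.5% of the p53 list, and 3.57% and 10.7% of the cell death list. They made up 4.76% and 9.52% of the antioxidant list, against 3.27% and 6.24% of all genes. TP53I3 and the stress sensor SESN1 (0.87 ± 0.15, SE, limma adjusted p = 0.0133) rose among 22 p53 targets and growth arrest genes, and the kinase inhibitor CDKN2B fell by 0.35. Among 28 regulators of cell death, GSDMC and the survival gene BCL2L1 (-0.40) fell, as did the brightest probe set of BCL2, another survival gene (-0.35), while BIRC3, also a death inhibitor, rose by 0.47. For BCL2 the other 4 of 5 probe sets had the opposite sign, and 1 of them was itself called higher (0.24 ± 0.06, SE, limma adjusted p = 0.0493), so the gene has no settled direction. Of 42 antioxidant genes, MGST1 (0.58) and GSTA4 (0.50) rose, and GSTT1 (-0.42), SOD2 (-0.39), GCLC (-0.35) and TXN2 (-0.30) fell. SOD2, the mitochondrial superoxide dismutase, read 11.09, 11.23, 11.34, 11.39 and 11.30 in long and 11.60, 11.50, 11.65, 11.72 and 11.79 in short conceptuses. Calls of TP53I3, SESN1, BIRC3, BCL2L1, GSDMC and GSTT1, and that of the brightest BCL2 probe set, held with any 1 conceptus left out. GCLC lost its call in 9 fits (limma adjusted p up to 0.0772, without long 5), CDKN2B in 8 (0.0934, without long 2), GSTA4 and MGST1 in 7 (0.08 without long 2 and 0.0965 without long 5), TXN2 in 5 (0.0687, without short 4) and SOD2 in 1 (0.0527, without short 4).

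Markers of tissues around or inside the conceptus were dim. Higher and lower calls made up 6.25% and 6.25% of endothelial markers and 0% and 4.5% of blood and immune markers. Over all genes they made up 3.27% and 6.24%, and over genes below the median level 2.29% and 2.95%. Of 10 endometrial and 13 erythroid markers none was called in limma, also with any 1 conceptus left out. At an unadjusted p under 0.05 there were 1 and 0, against 5274 of all 24016 probe sets. Of 22 blood and immune markers the T-cell gene CD8A was lower by 0.84 ± 0.20 (SE, limma adjusted p = 0.0322), while PTPRC, carried by all white blood cells, stood at -0.11 ± 0.10 (SE, limma adjusted p = 0.587). Of 16 endothelial markers PECAM1 rose by 0.99 ± 0.14 and SOX18 fell by 0.84 ± 0.15 (SE; limma adjusted p = 0.00902 and 0.0145), while CDH5, TIE1 and VWF lay between 3.09 and 4.42 in all 10 conceptuses. PECAM1 read 5.60, 6.43, 5.81, 5.80 and 6.16 in long and 4.99, 4.89, 4.96, 4.84 and 5.16 in short conceptuses. The mean level over the endothelial list was 4.28 to 4.38 in long and 4.23 to 4.34 in short conceptuses, and over the blood list 4.60 to 4.73 and 4.57 to 4.76; their part in the results above was not tested. CD8A lost its call in 7 fits (limma adjusted p up to 0.0771, without long 5), and PECAM1 and SOX18 kept theirs.

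The conceptuses of a group did not contribute alike to the 870 calls. Short 5 was the short conceptus farthest from the long group in 517 genes (59.4%) and long 2 the long one farthest from the short group in 372 (42.8%). Nearest to the other group were long 3 in 376 genes (43.2%), short 1 in 292 (33.6%) and short 2 in 279 (32.1%), where an equal part for each of 5 would be 20%. The SD was larger among short than among long conceptuses in 61.6% of all genes. The first principal component over the 10 arrays held 37.0% of the variance and ran from short 5 at 38.49 to short 1 at 1.57 and from long 3 at -6.07 to long 2 at -31.98.

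**Figure D5:**
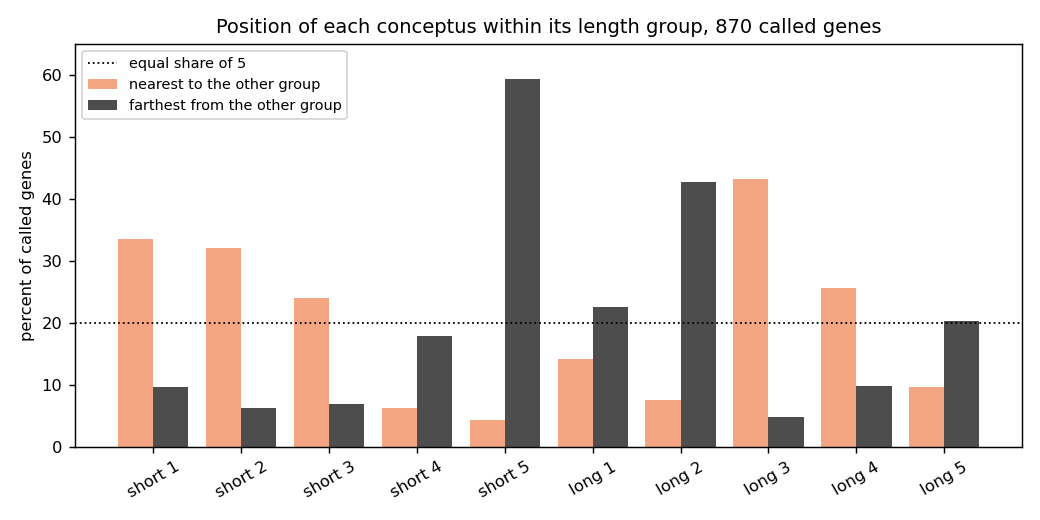
For each conceptus, the percent of the 870 called genes in which it lay nearest to (orange) or farthest from (grey) the other length group among the 5 of its own group; the dotted line marks an equal share. Short 5 and long 2 are most often the farthest, and long 3, short 1 and short 2 most often the nearest.

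Leaving out a conceptus changed how many genes passed but not the direction of those called. These fits and the ones below reuse the arrays by which the 870 genes were chosen, so a kept direction was largely built in. All 870 called genes kept their direction in each of the 10 fits with 1 conceptus left out, and between 251 (without short 4) and 733 (without short 1) of them were still called. They numbered 284 without long 5, 299 without long 2, 344 without long 1, 375 without short 5, 483 without long 4, 563 without short 3, 610 without short 2 and 629 without long 3. With short 1 counted as long, as its source name says, all 870 kept their direction and 184 were still called. With the title prefix as a block, which leaves only the 2 prefixes with both lengths to inform the difference, all kept their direction and 50 were still called. The rule for named genes covers 147 called genes, of which 18 were still called. Higher were CKM, PAG12, TP53I3, PLA2G7, TAGLN, BMP2, PRR15, ELOVL5, CYP19A1, ACSL5 and TPM4. Lower were PDGFRA, SLC5A5, AQP3, NDN, SLC16A3, CTSH and MRPL19. The calls of the other genes under that rule ended there, and genes named outside it were not followed 1 by 1. With sex as a covariate 858 of the 870 were still called.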

How the data were processed

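Total RNA (250 ng per conceptus, per the labels' protocols) was hybridised to Affymetrix bovine arrays. The authors deposited log2 expression values; per the submitters' processing notes these came from RMA and the Affymetrix Expression Console, of unstated version. RMA forces all arrays to 1 distribution, which hides a change common to most genes. After 112 control probe sets were left out, 24016 were tested with limma 3.58.1 (lmFit and eBayes, two-sided) in R 4.3.3 on the 10 arrays, with Benjamini-Hochberg adjustment and a threshold of 0.05. Platform annotation gave 1 symbol to 13292 probe sets, several to 86 and none to 10638, and 13263 matched RefSeq genes by Entrez number. The fit was tested on simulated data.

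Named genes were the 16 largest rises and 14 largest falls among called genes without overlap, up to 4 called members per list and direction by adjusted p (the smallest p where none passed), and marker genes. Further called members of some lists were named after their values were seen. Gene lists had no test: counts and medians are set beside those of all genes. The comparison, lists and rules were chosen with earlier results of these data known. Alternatives were each conceptus left out, the conflicting label, title prefix (fixed or random block), sex, 2 rescalings, a filter on the dimmest 25% of probe sets, a variance trend, all 14 arrays in 1 fit, and the mean over all probe sets of a gene for list medians. The number of arrays limits precision. Sequences were not analysed here.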

Additional observations from a re-analysis of the deposited data

Results flagged for a closer look

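Among 314 groups of 5 values tested (each named gene in each length group), 12 held a conceptus whose gap to its nearest neighbour exceeded 0.71 of the group's range, the 95% limit for 5 values. Chance gives about 1 in 20 groups. In short 5 these were PTGIS at 6.75 (nearest other 7.90), AK3 at 8.26 (8.78), TKDP1 at 13.91 (14.35) and PAG2 at 12.48 (13.61), all at the low end. In long 2 they were CTNNAL1 at 6.26 (6.73) and KIF2C at 9.05 (9.20), low, and HSPB8 at 8.03 (7.61), high. In long 3, EZH2 at 9.78 (9.62) and POU5F1 at 7.99 (7.26) were high, that is toward the short group. Long 5 was low in C3 at 6.24 (6.97), short 2 was high in TKDP2 at 4.94 (4.26), and short 1 was high in CD63 at 12.65 (12.42), which lies next to the long conceptuses.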

How the results depend on the processing

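Of 24016 probe sets 1577 were called, 648 higher and 929 lower in long conceptuses. With 1 conceptus left out the total ranged from 460 (without short 4) to 1697 (without short 1), those higher from 213 to 723 and those lower from 247 to 974. Counting the conceptus of conflicting labels as long gave 492, with 270 higher and 222 lower. The title prefix as a fixed block gave 112, with 64 higher and 48 lower, and as a random block (consensus correlation 0.138) 1653. Sex as a covariate gave 2403, of which 1440 were lower. The other settings stayed within 1.5 times: 1548 with array medians centred, 1467 after a second quantile normalisation, 1783 without the dimmest 25%, 1791 with a variance trend and 1750 with all 14 arrays. Of the 147 named genes called, 63 kept the call in all 10 fits with 1 conceptus left out, 147 with sex, 139 after quantile normalisation, 38 with the conflicting label as long and 18 with the title prefix as a block. KRT18, not called and at 0.01, turned to -0.00435 with arrays centred and to -0.0743 after quantile normalisation. Medians of the lists of ribosome biogenesis, mitochondrial ribosome, DNA replication, cholesterol synthesis, creatine and annexins kept their sign in all settings; that of trophectoderm transcription factors turned from -0.14 to 0.03 with the conflicting label as long, that of 6 X-linked genes from 0.11 to between -0.0835 and -0.00302 in 6 settings, and those of several lists near 0 turned too. No paired analysis by replicate number was possible because the labels give no replicate numbers that the length groups share; the title prefix, which pairs them only in part, was used as the block above. The causes of these changes were not tested. Signal near either end of the scale limits what small differences could be seen.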

Other observations

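Genes that make 1-carbon units, purines and pyrimidines were another group with lower values in long conceptuses; the list was chosen after values had been seen. Of 31 measured genes 11 were called lower (6.24% of all genes were) and 0 higher, with a median of -0.26 against -0.03 over all genes. SHMT2, which splits serine in the mitochondrion, read 8.37, 8.35, 8.67, 8.40 and 8.22 in long and 9.09, 9.14, 9.05, 9.07 and 9.43 in short conceptuses and fell by 0.75 ± 0.10 (SE, limma adjusted p = 0.00788). The short conceptuses other than short 5 agreed within 0.1. MTHFD1L and MTHFD2, which carry the unit on to formate in the mitochondrion, fell by 0.83 and 0.96, and PSAT1, of serine synthesis, by 0.94. In the cytosol MTHFD1 fell by 0.42. The purine enzyme ATIC (-0.30) and the pyrimidine enzymes CAD (-0.45) and UMPS (-0.49) were lower, as were CD320 (-0.69) and MMACHC (-0.64), which take up and process vitamin B12, and FOLR3. PHGDH, the first step of serine synthesis, was not called (-0.55 ± 0.34, SE, limma adjusted p = 0.386), with its lowest value, 7.33, in long 2 and 8.34 in short 5.

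The Grade 1 conceptus that carries no length label lay nearer to the mean of the long group in 421 of the 870 called genes (48.4%) and nearer to the short mean in 449. Split by direction, it lay nearer to the long mean in 139 of 299 higher and 282 of 571 lower genes. It read 8.01 in CKM and 7.07 in PAG12, close to the short means of 7.05 and 7.03, 9.30 in TP53I3 and 5.50 in PDGFRA, close to the long means of 9.55 and 5.62, and 7.04 in NDN and 7.01 in SLC5A5, nearer to the short means of 6.56 and 7.56.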
